A study of Mus musculus with 48 samples.

Results

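Ion channels opened by membrane voltage set how dentate granule cells fire. This account follows the voltage-gated sodium channel, voltage-gated calcium channel and HCN channel genes of the mouse dentate gyrus after intrahippocampal kainate. Members were all protein-coding genes whose symbol begins with Scn plus a digit, with Cacn, or with Hcn plus a digit, and that reached 10 counts in at least 4 of the 48 libraries. Of 44 such symbols, 39 met the count rule, out of 55357 genes in the count table and 15602 protein-coding genes that met the same count rule. Cacna1f, Scn4a, Scn10a, Scn11a and Cacng1 did not reach it. The members comprised 20 pore-forming subunits (7 sodium channel alpha, 9 calcium channel alpha1 and 4 HCN genes) and 19 auxiliary subunits (4 sodium channel beta, 4 calcium channel beta, 4 alpha2delta, and 7 gamma genes, several of which encode the AMPA receptor auxiliary proteins called TARPs). All 39 passed the filter on low counts and entered the test.

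The tissue was bulk dentate gyrus from wild-type C57BL/6J mice given kainate, an excitotoxin that induces status epilepticus (SE), or saline vehicle, by injection into the hippocampus of 1 side. The series description gives an age of 6 to 8 weeks and 2 males and 2 females per group, while the study's methods give an older age range, and the labels do not give the sex of single libraries. Mice were taken 3, 7 or 14 days after injection, with 4 mice per treatment and day, 24 in all. Each mouse gave 1 library from the ipsilateral dorsal dentate gyrus, the epileptogenic zone (EZ), and 1 from the contralateral dorsal dentate gyrus, the peri-ictal zone (PIZ), so that the 12 groups of region, treatment and day held 4 libraries each. Saline mice had the same burr hole and needle placement, so this procedure was shared by the kainate and saline EZ groups, while PIZ tissue came from the side that the needle did not enter. In saline mice at day 3 the summed astrocyte markers were 2639 to 5035 CPM in EZ and 1360 to 1628 CPM in PIZ, and the summed microglial markers 345 to 586 CPM and 201 to 283 CPM. No group carried a transgene or any other allele.

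Sodium channel alpha subunits form the pore that carries the upstroke of the action potential, and their beta subunits, single-pass proteins with an immunoglobulin-like fold, tune gating and placement at the axon initial segment and nodes. Calcium channel alpha1 subunits form the pores of the L, P/Q, N, R and T types, with beta and alpha2delta subunits bringing the channel to the membrane, while HCN channels carry the hyperpolarization-activated cation current that sets resting potential and dendritic integration. Mutations in Scn1a, Scn2a, Scn8a and Cacna1a are known causes of inherited epilepsies, and several antiseizure drugs bind sodium channel pores or alpha2delta subunits.

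The pore-forming genes are close relatives, which bears on how their reads could be told apart. Scn1a, Scn2a, Scn3a, Scn7a and Scn9a all lie on chromosome 2. Of all windows of 38 coding bases, about the length that a 75-cycle kit gives to each end of a read pair, 17.44% of those of Scn3a, 15.05% of Scn2a, 10.72% of Scn1a and 9.94% of Scn9a occurred identically in another member, against at most 0.72% in each of the others. In 27 of the 39 members no window was shared. The counting used the primary alignment of a read that mapped to several places, so the counts of these 4 genes may hold reads of one another, and the part of such reads in the results below was not tested. Scn8a had 0.22% of its windows shared.

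The HCN genes are less alike. For 3 of them the 60 coding bases around the glycine-tyrosine-glycine selectivity filter of the pore are shown, to let the relatives that went different ways below be compared. They are from the GRCm39 genome with Gencode M39 coding exons (coding exon 4), read 5′ to 3′ on the coding strand, with capitals at the bases that differ from Hcn2.
Hcn2, chr10:79564763-79564822, plus strand: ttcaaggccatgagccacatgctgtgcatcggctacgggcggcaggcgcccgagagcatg
Hcn4, chr9:58762844-58762903, plus strand: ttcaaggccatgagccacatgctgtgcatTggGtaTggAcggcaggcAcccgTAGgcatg
Hcn3, chr3:89058292-89058351, minus strand: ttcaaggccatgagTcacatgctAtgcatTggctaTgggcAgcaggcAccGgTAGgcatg
Hcn4 differed at 8 bases and Hcn3 at 10, and no HCN gene shared a 38-base window with another member, so their reads could be told apart in the coding part.

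Total counts ran from 17762656 to 25712975 per library, with a median of 22108562. Markers of the labelled tissue were present: the granule cell transcription factor Prox1 lay between 132.68 and 334.61 CPM (counts scaled to a common library size) in the 24 saline libraries. In the bulk tissue, fewer cells of a type and less RNA per cell cannot be told apart. Several libraries stood apart. In EZ, mouse 27 at day 14 and mice 21 and 35 at day 7 lay at 121.6, 161.97 and 162.08 on the first principal component (56.68% of the variance), while the other 3 kainate mice of day 14 lay at -2.43 or lower and the other 2 of day 7 at 66.38 and 92.52. In PIZ, saline mouse 18 at day 3, saline mouse 39 at day 14 and kainate mouse 21 at day 7 had summed granule cell markers of 546.01, 451.6 and 365.54 CPM, which were the 7th, the 4th and the 2nd lowest of the 48 libraries, beside neuron marker sums of 6950.64, 6916.02 and 6641.28 CPM.

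In the saline EZ, the levels per transcript length, as FPKM (CPM divided by exon length in kilobases) computed here, covered more than 3 orders of magnitude. Sodium channel beta subunits were among the highest, with a median over 12 libraries of 52.5 FPKM for Scn3b (45.6 to 57.2) and 50.4 for Scn2b (47.2 to 55.0), whose ranges overlapped. Among pore-forming genes Scn8a, the main sodium channel of the mature initial segment, led at a median of 30.2 FPKM (27.4 to 34.2), followed by Scn2a at 25.99 (23.8 to 28.6), the R-type channel Cacna1e at 24.3 (21.1 to 25.7), the T-type channel Cacna1h at 21.3 (18.7 to 27.4) and Hcn2 at 19.1 (17.5 to 23.5). These neighbours overlapped in range. Scn1a, at a median of 7.61 FPKM, was well below Scn8a. Among the lowest were the skeletal muscle L-type channel Cacna1s at 0.0410 FPKM and the sodium-sensing channel Scn7a at 0.0609. Between saline EZ and saline PIZ no member was called by edgeR's quasi-likelihood test with Benjamini-Hochberg adjustment over 21390 genes (a call needs an adjusted p below 0.01 and a change of more than 1.5-fold), where 0.0234% of all genes were, and DESeq2 and limma-voom also called 0. An unadjusted p under 0.05 was found for 3 members and for 1908 of the 21390 genes.

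**Figure D1:**
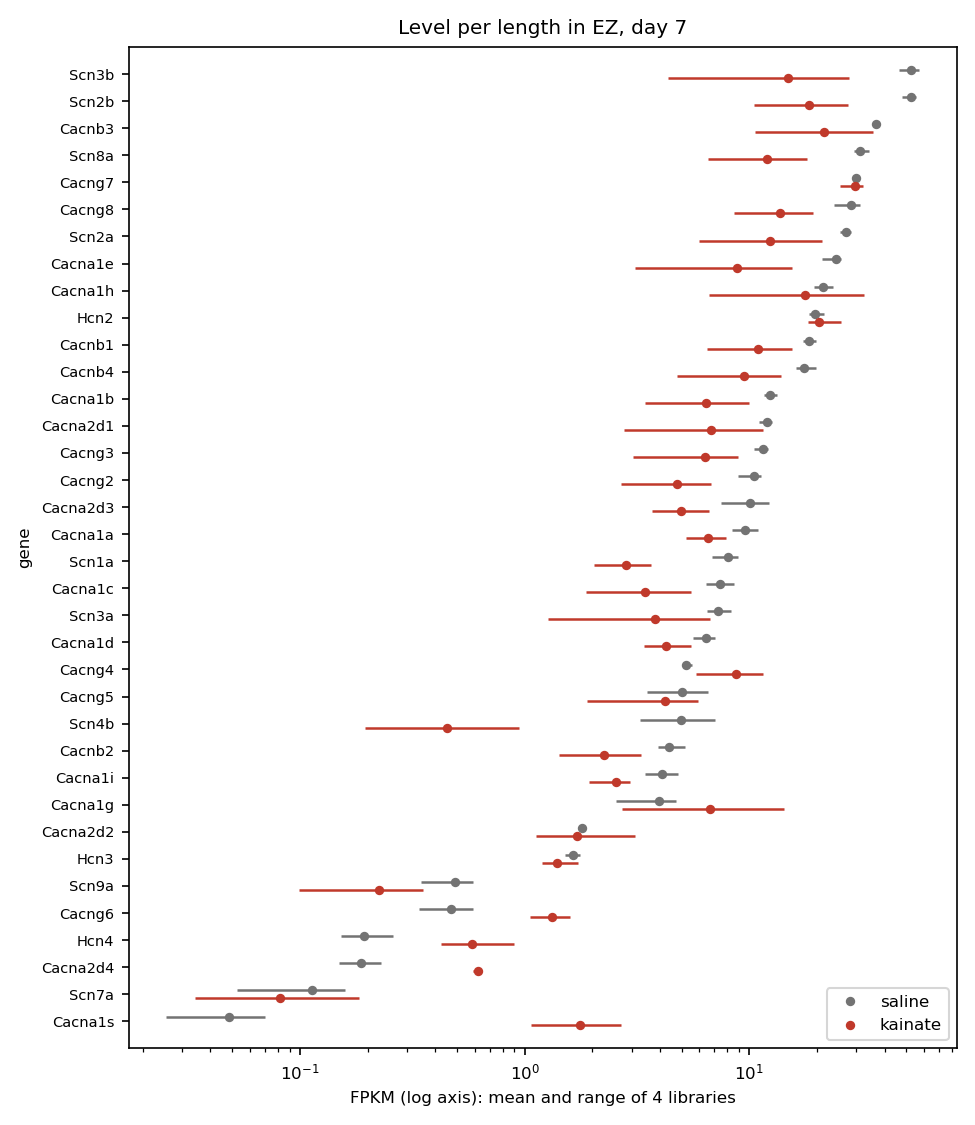
Level per length of 36 of the channel genes in EZ at day 7 (FPKM, log axis), with the mean as a point and the lowest to highest of 4 libraries as a line, saline in grey and kainate in red. For 20 genes the kainate range lies wholly left of saline, Cacng7 and Hcn2 overlap, and Cacna1s, Cacna2d4, Hcn4, Cacng6 and Cacng4 lie to the right. The same count was not made over all genes.

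After kainate, more channel genes of EZ were lower than higher at days 3 and 7. At day 3, 14 of 39 members were lower and 6 higher, against 8.61% of all genes lower and 16.1% higher. At day 7, 22 were lower and 5 higher, against 11.9% and 20.6% of all genes. The 39 summed to 2060 to 3349 CPM in the 4 kainate libraries of day 3 against 4418 to 4800 CPM in saline, and to 1579 to 3796 CPM against 4694 to 5112 CPM at day 7, with no overlap on either day. Over the members the log2 fold changes had a median of -0.54 (day 3) and -0.77 (day 7), where all genes tested had medians of 0.03 and 0.01. By day 14 a single member was called, Cacna1s, against 2.32% of all genes called higher.

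Genes of both classes were called lower. Of the 20 pore-forming genes, 4 were lower and 3 higher at day 3, and 10 lower and 2 higher at day 7. Of the 19 auxiliary genes, 10 were lower and 3 higher at day 3, and 12 lower and 3 higher at day 7. Pore-forming genes had a median log2 fold change of -0.53 (day 3) and -0.63 (day 7), and auxiliary genes of -0.76 and -0.82. Taken per kainate library, as the median log2 CPM difference from the saline mean, the pore-forming genes gave -0.54 ± 0.27 and the auxiliary genes -0.62 ± 0.39 at day 3 (SD, n = 4). At day 7 the values were -0.86 ± 0.51 and -0.89 ± 0.59. Both classes come from the same 4 libraries, so this spread between mice does not measure a difference between them. Within a library at day 7, pore-forming and auxiliary medians were -1.37 and -1.49 in mouse 21 and -1.23 and -1.30 in mouse 35. They were -0.46 and -0.34 in mouse 23 and -0.38 and -0.45 in mouse 26. A difference between the classes was not tested. The same 12 genes were lower on both days (Cacna2d3, Cacnb2, Cacnb4, Cacng2, Cacng3, Cacng8, Scn1a, Scn2a, Scn2b, Scn3b, Scn4b and Scn8a) and the same 5 were higher on both (Cacna1s, Cacna2d4, Cacng4, Cacng6 and Hcn4).

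**Figure D2:**
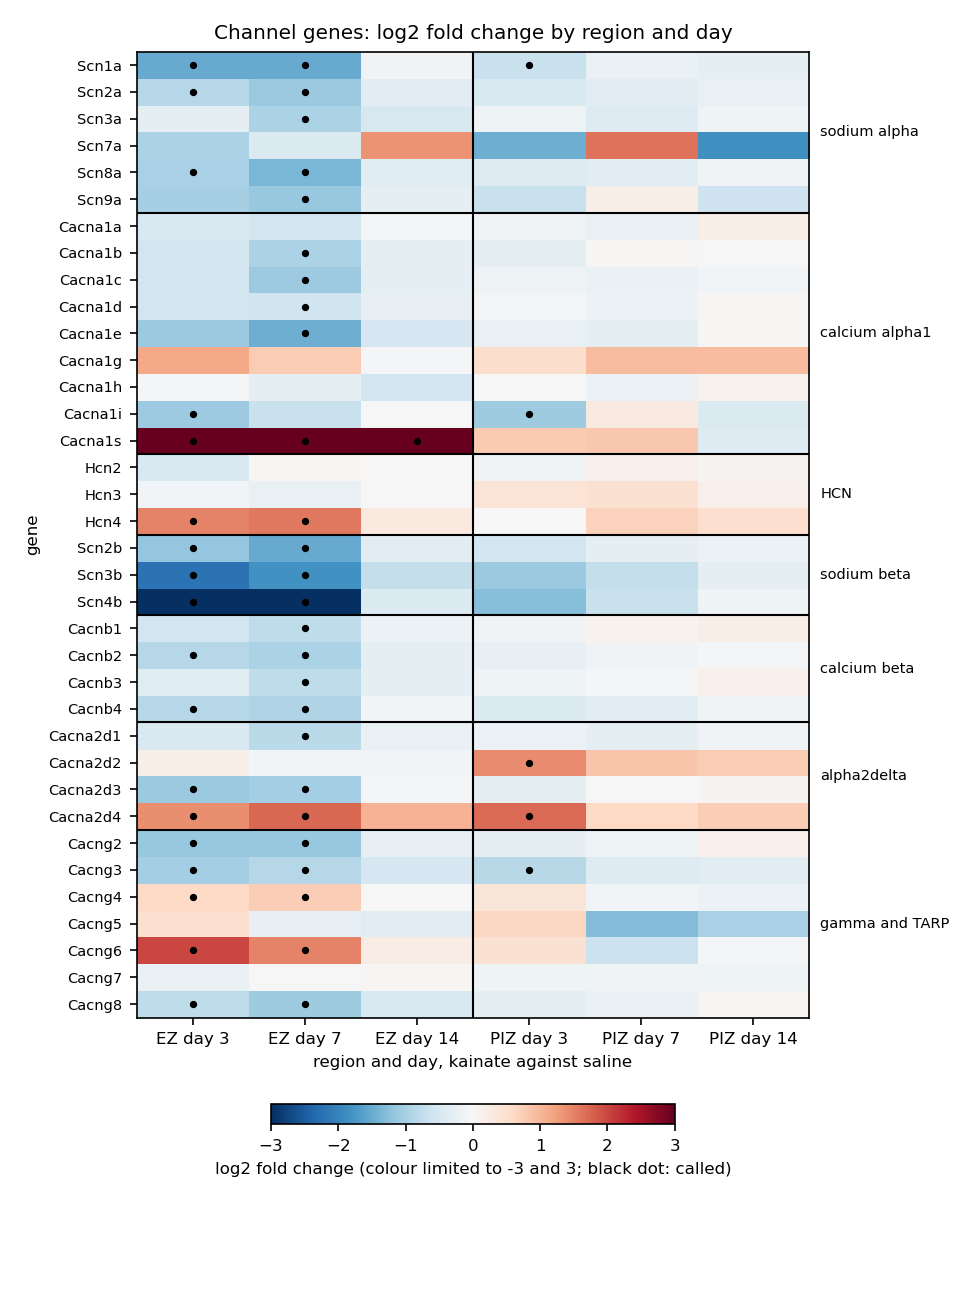
Log2 fold change of kainate against saline for 36 of the channel genes (rows, by class) in EZ and PIZ at days 3, 7 and 14 (columns), with colour limited to -3 and 3 and a black dot where a gene was called. EZ holds 18 dots at day 3, 26 at day 7 and 1 at day 14, and PIZ holds 5 at day 3 and none at days 7 and 14.

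**Figure D3:**
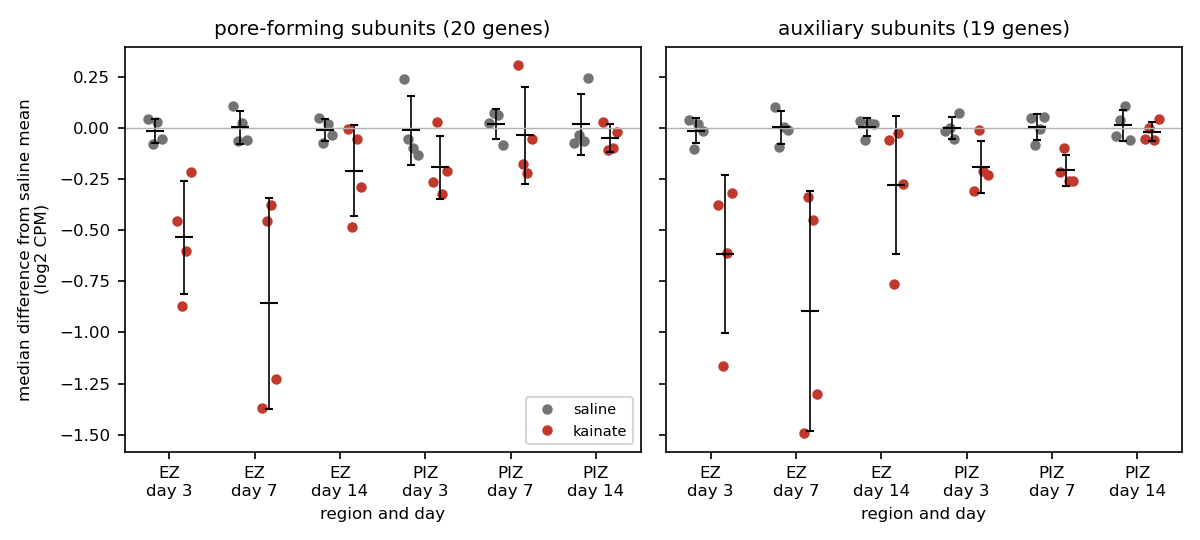
Median difference from the saline mean (log2 CPM) of the 20 pore-forming and the 19 auxiliary genes in each library, with points for libraries and bars for the mean and SD of 4. In EZ at day 7, 2 of the 4 kainate libraries lie below -1.2 in both classes and the other 2 above -0.5.

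Cell type markers differed between the same libraries. At day 3, 4 of 8 neuron markers were lower (median log2 fold change -0.61) and none higher, as were 3 of 8 granule cell (-1.06), 5 of 8 interneuron (-2.17), 3 of 6 CA3 pyramidal (-0.90) and 3 of 5 mossy cell markers (-0.99). At day 7 the counts were 6 (-1.06), 3 (-1.07), 4 (-1.40), 5 (-1.13) and 3 (-1.18), with 1 mossy cell marker higher. Microglial markers were higher for 5 of 6 at day 3 (1.29) and 6 of 6 at day 7 (2.66), astrocyte markers for 4 and 5 of 6 (0.90 and 1.47), meningeal and fibroblast markers for 4 of 4 on both days (2.27 and 2.504), oligodendrocyte precursor markers for 3 and 4 of 4 (1.14 and 1.13), endothelial markers for 2 of 4 (0.68 and 0.68) and oligodendrocyte markers for 0 and 2 of 6 (-0.18 and 0.69). Of 4 thalamic markers 1 was higher and 1 lower at day 3 and 2 were higher at day 7 (0.60 and 0.68). The summed neuron markers were 2254 to 3920 CPM in the kainate EZ of day 3 against 5104 to 6204 in saline, and 1593 to 3935 against 5193 to 6545 at day 7. The part of these shifts in the channel results was not tested.

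Among the sodium channel alpha genes, Scn1a had the smallest adjusted p of all members on both days. Scn1a (chr2:66101122-66271572), known mainly from interneurons, was 17.7, 25.5, 29.5 and 47.3 CPM in the kainate EZ of day 3, against 76.6, 81.5, 90.4 and 93.6 CPM in saline. At day 7 it was 23.6, 25.2, 39.97 and 42.1 CPM against 78.9, 88.96, 101 and 103 CPM. Every kainate library lay below every saline library on both days, and the log2 fold change was -1.51 ± 0.19 (SE, adjusted p = 1.98e-07) at day 3 and -1.50 ± 0.19 (adjusted p = 6.59e-08) at day 7 by edgeR. Scn8a was 158, 222, 242 and 320 CPM at day 3 against 432, 445, 471 and 508 CPM in saline. At day 7 it was 103, 108, 266 and 285 CPM against 461, 473, 489 and 540 CPM. Again no ranges overlapped, with log2 fold changes of -0.98 ± 0.22 (edgeR adjusted p = 0.000365) and -1.37 ± 0.22 (edgeR adjusted p = 2.82e-06). Scn2a was lower on both days (-0.84 and -1.12), while Scn3a, the channel of the embryonic brain, and Scn9a were called lower at day 7 and not at day 3 (-0.94 and -1.13). Leaving out 1 of the 8 mice lost the call of Scn3a for 6 of them (21, 35, 89, 33, 20 and 34, weakest value -0.65, highest edgeR adjusted p = 0.0600) and that of Scn9a for 4 (21, 35, 20 and 34, weakest value -0.88, highest edgeR adjusted p = 0.0293), and that of Scn2a at day 3 was lost without mouse 38 (-0.71, edgeR adjusted p = 0.0136). Scn7a was called nowhere; it had 1 to 46 counts in 45 libraries and 176, 220 and 229 counts in the 3 PIZ libraries with few granule cell markers named above.

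**Figure D4:**
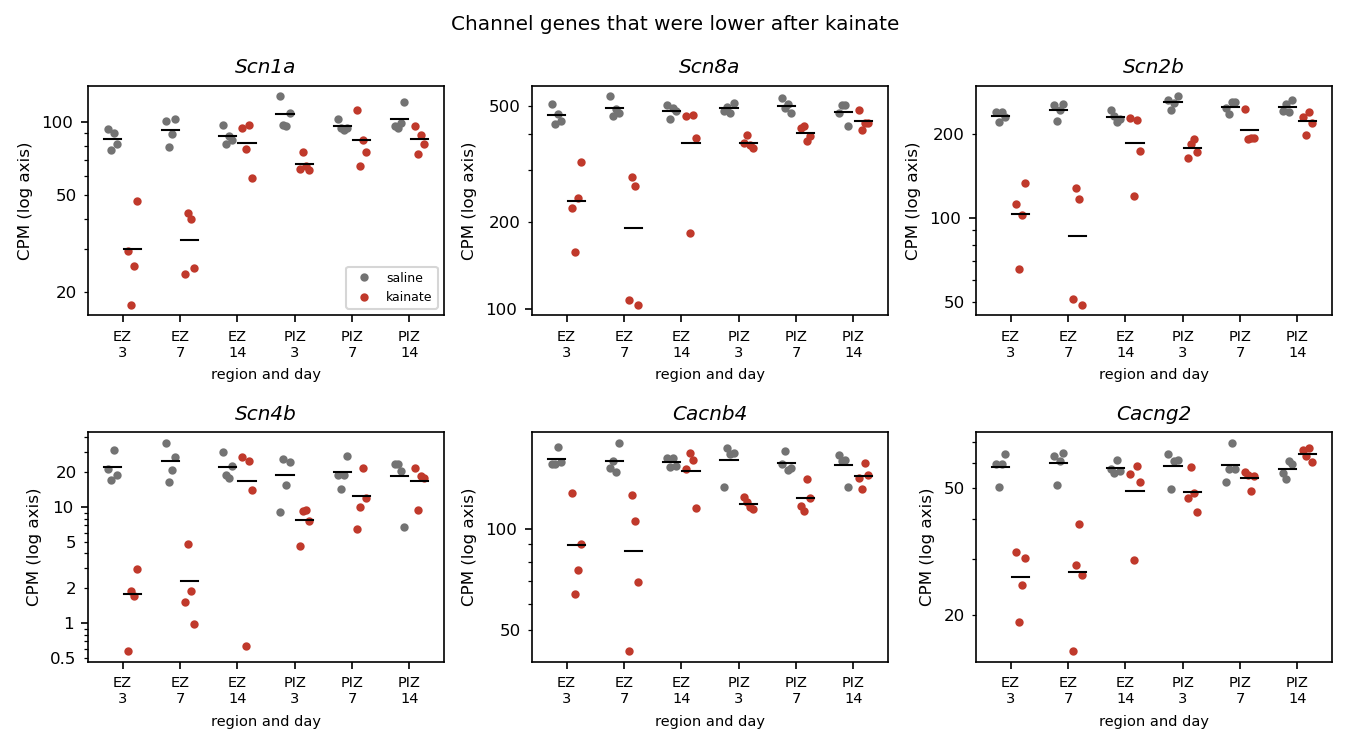
CPM per library (log axis) of 6 genes that were lower in EZ after kainate, by region and day (3, 7 and 14), with saline in grey, kainate in red and a bar at the mean of 4 libraries. Each gene's kainate points lie below its saline points in EZ at day 7, and in EZ at day 14 at least 1 kainate point per gene lies among the saline points.

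Calcium channel alpha1 genes split by direction. Cacna1e, the R-type pore, was 179, 233, 258 and 428 CPM in the kainate EZ of day 3, against 567, 588, 592 and 620 CPM in saline. This difference missed the threshold (log2 fold change -1.11 ± 0.36, edgeR adjusted p = 0.0108). At day 7 Cacna1e was 79.4, 83.6, 346 and 395 CPM against 541, 627, 659 and 659 CPM, and passed it (-1.46 ± 0.36, edgeR adjusted p = 0.000847). The N-type channel Cacna1b (-0.95) and the L-type channels Cacna1c (-1.10) and Cacna1d (-0.59) were also called lower at day 7, and the T-type channel Cacna1i at day 3 (-1.10). Without mice 21 and 35 these day 7 values were -0.41 (edgeR adjusted p = 0.143), -0.65 (edgeR adjusted p = 0.0413) and -0.34 (edgeR adjusted p = 0.182), none of them called, and none of the 3 was called on the compared groups alone. The call of Cacna1d was lost without mouse 21, 33, 34 or 35 (weakest value -0.49, highest edgeR adjusted p = 0.0194) and that of Cacna1i without mouse 37, 38 or 42 (weakest value -0.92, highest edgeR adjusted p = 0.0172). The P/Q-type channel Cacna1a had adjusted p-values of 0.00125 and 9.16e-05 by edgeR with log2 fold changes of -0.45 and -0.55, under the fold threshold. The T-type genes Cacna1h (-0.02 and -0.27) and Cacna1g (1.14 and 0.75) were not called. Without mice 21 and 35 the day 7 values were 0.42 (edgeR adjusted p = 0.280) and 1.41 (edgeR adjusted p = 0.0161), so that Cacna1h changed sign, and neither was called.

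Cacna1s (chr1:135980259-136047560), the voltage sensor of skeletal muscle, was the member with the largest log2 fold change. It was 2.19, 7.58, 8.19 and 15.7 CPM in the kainate EZ of day 3 against 0.265, 0.270, 0.323 and 0.341 CPM in saline. At day 7 it was 8.67, 8.73, 18.1 and 21.8 CPM against 0.206, 0.391, 0.408 and 0.565 CPM. All kainate libraries lay above all saline libraries, with log2 fold changes of 4.79 ± 0.98 (edgeR adjusted p = 0.000123) and 5.16 ± 0.95 (edgeR adjusted p = 2.10e-05). At day 14 mouse 27 held 45.7 CPM and the other 3 kainate libraries 0.292, 0.302 and 0.393 CPM. The saline range was 0.297 to 0.649 CPM, so the lowest of these lay just below it. The log2 fold change at day 14 was 4.73 ± 0.94 (edgeR adjusted p = 0.00182), and -0.41 (edgeR adjusted p = 1) without mouse 27. Leaving out any 1 of the 4 saline mice gave 4.58 to 4.97 with adjusted p-values of 0.0101 to 0.0157 by edgeR, just past the threshold. In PIZ Cacna1s stayed between 0.0504 and 1.06 CPM in all 24 libraries.

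Among the HCN genes, Hcn4 rose. Hcn4, the slow subunit best known from the cardiac pacemaker, was 2.23, 2.68, 3.94 and 6.04 CPM at day 3 against 1.12, 1.15, 1.49 and 1.57 CPM. At day 7 Hcn4 was 2.85, 2.96, 3.72 and 6.01 CPM against 1.02, 1.08, 1.34 and 1.74 CPM. It rose on both days without overlap, by a log2 fold change of 1.48 ± 0.30 (edgeR adjusted p = 0.000104) and 1.58 ± 0.30 (edgeR adjusted p = 3.10e-05). Hcn2, the most abundant HCN gene per length, was 42.9, 44.7, 45.6 and 54.5 CPM at day 3 against 62.2, 63.5, 65.9 and 65.9 CPM, a difference past the adjusted p threshold and under the fold threshold (-0.46 ± 0.09, edgeR adjusted p = 0.000104). At day 7 Hcn2 overlapped saline, at 64.7, 65.0, 70.8 and 90.7 CPM against 65.2, 68.2, 68.6 and 76.6 CPM (0.06 ± 0.09). Hcn3 had log2 fold changes of -0.08 and -0.23.

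**Figure D5:**
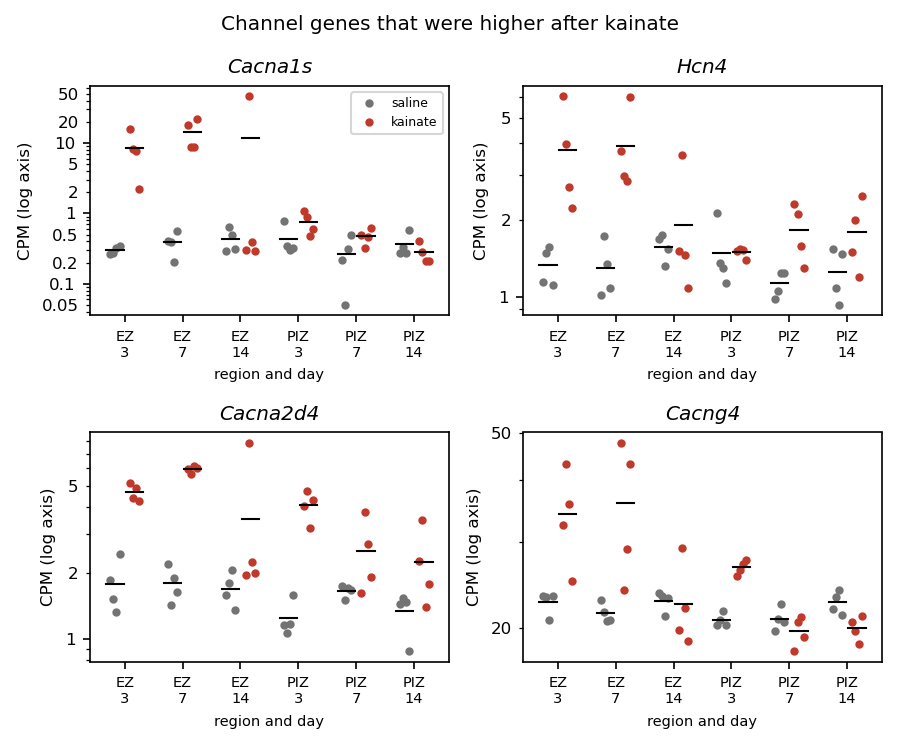
CPM per library (log axis) of 4 genes that were higher in EZ after kainate, by region and day (3, 7 and 14), with saline in grey, kainate in red and a bar at the mean of 4 libraries. At day 14 in EZ, 1 kainate library (mouse 27) is the highest for each gene, and for Cacna1s it is at 45.7 CPM while the other 3 are under 0.4 CPM.

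The sodium channel beta genes had the largest falls, with class medians of -1.69 (day 3) and -1.66 (day 7) on the log2 scale. Scn4b (chr9:45049595-45065452), linked to fast resurgent sodium current, was 0.574, 1.70, 1.91 and 2.95 CPM in the kainate EZ of day 3 against 17.2, 18.999, 21.3 and 31.1 CPM in saline. At day 7 Scn4b was 0.996, 1.53, 1.91 and 4.79 CPM against 16.6, 20.9, 27.3 and 35.9 CPM. The kainate libraries were far below saline on both days, with log2 fold changes of -3.64 ± 0.59 (edgeR adjusted p = 6.49e-06) and -3.47 ± 0.58 (edgeR adjusted p = 5.16e-06). Scn2b, its neighbour on chromosome 9, was 65.5, 102, 112 and 133 CPM at day 3 against 220, 230, 239 and 240 CPM. At day 7 Scn2b was 48.7, 51.1, 117 and 128 CPM against 222, 243, 253 and 256 CPM. Its log2 fold changes were -1.17 ± 0.20 (edgeR adjusted p = 1.20e-05) and -1.50 ± 0.20 (edgeR adjusted p = 1.17e-07). Scn3b, on the same chromosome, was 52.3, 57.5, 94.2 and 107 CPM at day 3 against 327 to 403 CPM (-2.22), and fell by 1.82 on the log2 scale at day 7.

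Among calcium channel beta genes, the cytoplasmic subunits that bind the pore, 2 of 4 were lower at day 3 and 4 of 4 at day 7. Cacnb4, mutated in the lethargic mouse with its ataxia and seizures, was 64.1, 75.6, 90.2 and 128 CPM in the kainate EZ of day 3 against 156, 156, 159 and 175 CPM in saline. At day 7 Cacnb4 was 43.3, 69.7, 106 and 126 CPM against 147, 152, 159 and 180 CPM. Neither day overlapped, and the log2 fold changes were -0.85 ± 0.18 (edgeR adjusted p = 0.000171) and -0.89 ± 0.18 (edgeR adjusted p = 6.11e-05). Cacnb3, the most abundant of the class per length, was 93.3, 134, 147 and 156 CPM against 153, 170, 175 and 182 CPM at day 3 (-0.36 ± 0.21, not called). At day 7 Cacnb3 was 53.5, 66.9, 134 and 180 CPM against 181, 182, 187 and 192 CPM (-0.77 ± 0.21, edgeR adjusted p = 0.00245), and without mouse 21 or mouse 35 its value was -0.60 (edgeR adjusted p = 0.0262) or -0.54 (edgeR adjusted p = 0.0271). Cacnb2 was called lower on both days (-0.86 and -0.95), and Cacnb1 at day 7 (-0.77) and not at day 3 (-0.59). Cacnb1 too lost its call without mouse 21 or 35 (weakest value -0.58, highest edgeR adjusted p = 0.0119). None of the 4 was called at day 7 on the compared groups alone, or with mice 21 and 35 both left out (-0.53 to -0.24).

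The alpha2delta genes, extracellular subunits that include the gabapentin target Cacna2d1, split. Cacna2d1 was 142, 172, 213 and 225 CPM at day 3 against 253, 256, 263 and 265 CPM in saline (-0.46 ± 0.22, not called). At day 7 Cacna2d1 was 61.4, 75.5, 208 and 255 CPM against 245, 263, 271 and 280 CPM (-0.82 ± 0.22, edgeR adjusted p = 0.00172), and without mouse 21 or 35 it was -0.56 (edgeR adjusted p = 0.0151) or -0.60 (edgeR adjusted p = 0.0190). Cacna2d3 was 36.5, 40.6, 42.9 and 55.3 CPM at day 3 against 79.6, 86.1, 90.0 and 122 CPM. At day 7 Cacna2d3 was 37.5, 40.9, 56.0 and 67.5 CPM against 76.2, 93.4, 116 and 124 CPM, so that it fell on both days without overlap (-1.11 ± 0.20, edgeR adjusted p = 3.52e-05, and -1.02 ± 0.20, edgeR adjusted p = 5.87e-05). Cacna2d4, the subunit of photoreceptor synapses, rose from a low level. It was 4.25, 4.40, 4.86 and 5.16 CPM at day 3 against 1.34, 1.53, 1.85 and 2.44 CPM. At day 7 Cacna2d4 was 5.66, 5.96, 6.06 and 6.16 CPM against 1.43, 1.65, 1.91 and 2.19 CPM. The log2 fold changes were 1.38 ± 0.30 (edgeR adjusted p = 0.000265) and 1.73 ± 0.30 (edgeR adjusted p = 8.99e-06). Cacna2d4 lies near Cacna1c on chromosome 6, which was called lower at day 7. Cacna2d2 was not called in EZ (0.17 and -0.08).

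The gamma genes held both directions. Cacng2, which encodes stargazin, the TARP whose loss gives the stargazer mouse its absence seizures, was 19.015, 24.7, 30.1 and 31.6 CPM in the kainate EZ of day 3 against 50.5, 59.5, 59.7 and 63.9 CPM in saline. At day 7 Cacng2 was 15.4, 26.6, 28.8 and 38.5 CPM against 51.1, 60.9, 63.0 and 64.5 CPM. It fell without overlap on both days, by -1.15 ± 0.17 (log2, edgeR adjusted p = 2.03e-06) and -1.13 ± 0.17 (edgeR adjusted p = 1e-06). The TARPs Cacng3 (-1.01 and -0.86) and Cacng8 (-0.77 and -1.06) were also lower on both days. Cacng8 lost its call at day 3 without mouse 38 or 18 (weakest value -0.62, highest edgeR adjusted p = 0.0227) and Cacng3 at day 7 without mouse 21 or 35 (weakest value -0.63, highest edgeR adjusted p = 0.0119). Cacng4, a TARP also known from glia, rose to 24.9, 32.5, 35.9 and 43.2 CPM at day 3 against 20.8, 23.2, 23.3 and 23.3 CPM. At day 7 Cacng4 was 23.97, 29.05, 43.2 and 47.7 CPM against 20.7, 20.8, 21.6 and 22.9 CPM. Its log2 fold changes, 0.59 ± 0.14 (edgeR adjusted p = 0.000484) and 0.74 ± 0.14 (edgeR adjusted p = 1.83e-05), were close to the fold threshold of 0.585 at day 3, and under it without mouse 38 (0.46), mouse 37 (0.55) or mouse 42 (0.57), with DESeq2 (0.57), with RLE size factors (0.57), with no filter on low counts (0.57) and on the compared groups alone (0.55), and at day 7 without mouse 21 (0.58). On the compared groups alone the day 7 value was 0.74 and missed the threshold (edgeR adjusted p = 0.0203). Cacng6 was 4.59, 5.74, 7.58 and 11.02 CPM at day 3 against 1.38, 1.63, 1.90 and 2.34 CPM, and rose on both days (1.99 and 1.49). Of its neighbours on chromosome 7, Cacng8 was lower on both days, as given above, and Cacng7, the most abundant gamma gene per length, was 78.6, 95.8, 101 and 103 CPM at day 3 against 102, 108, 111 and 112 CPM (-0.19 ± 0.11). At day 7 Cacng7 was 100, 115, 125 and 127 CPM against 117, 118, 118 and 122 CPM (-0.02 ± 0.11). Cacng5, which lies on chromosome 11, was not called (0.48 and -0.24).

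The 4 kainate mice of day 7 were not alike. For every one of the 22 genes called lower in EZ at day 7, the 2 lowest kainate libraries were those of mice 21 and 35, which also had the lowest summed neuron markers (1593 and 1751 CPM, against 3543 and 3935 CPM in mice 26 and 23) and the highest summed microglial markers (3033 and 2196 CPM, against 1284 and 867 CPM). With mice 21 and 35 both left out, an alternative chosen after seeing the data, 5 members were lower and 4 higher, against 2.8% and 10.2% of all genes, and the median log2 fold change of the members was -0.38. The 5 that remained lower were Scn1a (-1.18 ± 0.22, edgeR adjusted p = 0.000128), Scn8a (-0.83), Scn2b (-0.99), Scn4b (-2.93) and Cacng2 (-0.83), and the 4 that remained higher were Cacna1s (4.44), Hcn4 (1.16), Cacna2d4 and Cacng6. Cacna1e was -0.74 ± 0.35 (edgeR adjusted p = 0.115) in that fit. Fitted on the 2 groups alone rather than on all 48 libraries, 6 members were lower and 4 higher at day 7, against 5.16% and 14.9% of all genes in that fit, and among the calls lost were those of Scn8a, Scn3b, Scn2a, Cacna1e and Cacng4. At day 3, mouse 38 was the lowest kainate library for 13 of the 14 genes called lower. The order of the kainate libraries was not counted over all genes called lower on either day.

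At day 14 the 4 kainate mice differed. Of the 22 genes called lower at day 7, mouse 27 was below every saline library for 21 and was the lowest kainate library for 20, while of the other 3 mice none reached the lowest saline library for 3 genes (Cacna1e, Scn2a and Scn3b), 1 did for 5 genes, 2 did for 11 and 3 did for 3 (Cacna1c, Cacna1d and Cacnb1). These counts were not made over all genes, where mouse 27 also stood apart on the first principal component, as given above. Scn4b was 0.634 CPM in mouse 27 and 14.2, 24.8 and 27.2 CPM in the others, against 17.8 to 30.1 CPM in saline. Cacna1e was 79.3 CPM in mouse 27 and 527, 582 and 590 CPM in the others, against 598 to 652 CPM in saline. Scn1a was 58.6, 77.2, 94.6 and 96.8 CPM against 81.3, 84.4, 87.4 and 97.2 CPM, a log2 fold change of -0.10 ± 0.19. The summed neuron markers of mouse 27 were 3336 CPM, against 4471 to 5825 CPM in the others, and its summed microglial markers 1508 CPM against 309 to 382 CPM. Over all members the median log2 fold change was -0.23. An unadjusted p under 0.05 was found for 4 members and for 3848 of the 21390 genes tested. Among the markers, 4 of 6 for microglia and 2 of 6 for astrocytes were still called higher.

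In PIZ, members were called at day 3 and not at day 7 or day 14. At day 3, 3 members were lower (Scn1a, Cacna1i and Cacng3) and 2 higher (Cacna2d2 and Cacna2d4), against 1.57% of all genes lower and 7.12% higher, and the median over members was -0.16. Scn1a was 63.5, 64.3, 65.6 and 75.1 CPM against 96.7, 96.9, 109 and 127 CPM (-0.68 ± 0.19, edgeR adjusted p = 0.00776). Cacna2d4 was 3.20, 4.06, 4.32 and 4.73 CPM against 1.07, 1.16, 1.17 and 1.59 CPM (1.70 ± 0.31, edgeR adjusted p = 0.000130). Cacna2d2, an alpha2delta gene best known from cerebellar Purkinje cells, was 24.1, 43.2, 45.6 and 63.9 CPM against 14.6, 15.3, 17.9 and 18.8 CPM (1.41 ± 0.34, edgeR adjusted p = 0.00229). All 3 were without overlap. Scn3b (-1.10, edgeR adjusted p = 0.0313) and Scn2b (-0.54, edgeR adjusted p = 0.0394) did not pass. Leaving out 1 of the 8 mice left 2 to 4 of the 5 calls, with 3 without saline mouse 18, whose library held few granule cell markers. The call of Scn1a was lost without any 1 of 7 mice (log2 fold change -0.73 to -0.59, highest edgeR adjusted p = 0.0405) and kept without the eighth, mouse 38. Cacna1i lost its call in 5 of the 8 (highest edgeR adjusted p = 0.0525), Cacng3 in 6 (0.0293) and Cacna2d2 in 3 (0.0167), and Cacna2d4 in none. With library sizes unscaled, which moved the median of all genes to 0.11, the 3 lower calls were lost and the 2 higher ones stayed (1.01% of all genes were lower and 8.54% higher in that fit). Here 6 of 6 microglial (median log2 fold change 1.54) and 4 of 6 astrocyte markers (1.19) were higher, no neuron marker was called (-0.11), 1 of 8 interneuron (-0.46) and 1 of 4 oligodendrocyte precursor markers (0.27) were higher and 2 of 8 granule cell markers lower, and their part was not tested. At day 7 and day 14 no member was called in PIZ, against 0.201% and 0.014% of all genes, and DESeq2 and limma-voom also called 0. On each day 6 members had an unadjusted p under 0.05. Of the 21390 genes tested, 3104 had such a p at day 7 and 1277 at day 14.

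The difference of the kainate effect between EZ and PIZ was tested in the same fit. At day 3 no member was called (0.0655% of all genes), with 0 by DESeq2 and 11 by limma-voom with quality weights, which called 8.78% of all genes. At day 7, 5 members had a lower effect in EZ (among them Scn1a, Scn2b, Scn4b and Cacng2) and 2 a higher one (Cacng4 and Cacng6), against 2.88% and 7% of all genes. Scn1a differed by -1.32 ± 0.27 (edgeR adjusted p = 0.00199), with PIZ libraries of 65.8, 75.3, 84.7 and 112 CPM after kainate and 92.6, 94.6, 94.8 and 103 CPM after saline. Scn2b differed by -1.22 ± 0.28 (edgeR adjusted p = 0.00304), Scn4b by -2.80 ± 0.76 (edgeR adjusted p = 0.00781), Cacng2 by -0.99 ± 0.24 (edgeR adjusted p = 0.00414), Cacng4 by 0.83 ± 0.19 (edgeR adjusted p = 0.00352) and Cacng6 by 2.14 ± 0.53 (edgeR adjusted p = 0.00460). EZ and PIZ libraries of a mouse share the animal, and with mouse as a block 11 members were called, 9 lower and 2 higher, against 4.07% and 6.95% of all genes. Among those added were Scn8a (-1.21), Cacna2d3 (-0.998), Cacnb1 (-0.99) and, higher, Cacna2d4 (1.21), and Cacng4 was lost (0.78, edgeR adjusted p = 0.0111). No call remained when mouse 21, 35, 89 or 20 was left out, where 0.00463%, 0.869%, 1.02% and 0.686% of all genes were called, nor with mice 21 and 35 both left out. The count was 3 without mouse 34 (3.01% of all genes), 15 without mouse 26 (14.4%) and 17 without mouse 23 (17.3%). DESeq2 called 13 members and 16.5% of the 17629 genes to which it gave an adjusted p, and limma-voom 29 members and 24% of all genes. On the compared groups alone 5 were called (5.79% of all genes), and those of Scn2b (-1.21, edgeR adjusted p = 0.0236), Cacng2 (-0.98, edgeR adjusted p = 0.0189) and Cacng4 (0.84, edgeR adjusted p = 0.0223) were lost. In the same contrast 5 of 8 neuron (median -1.02), 3 of 8 interneuron (-1.77) and 3 of 5 mossy cell markers (-1.30) had a lower effect in EZ, and 6 of 6 microglial (2.08), 3 of 6 astrocyte (1.11) and 1 of 4 oligodendrocyte precursor markers (0.87) a higher one, while no granule cell (0.06) or CA3 pyramidal marker (-1.15) was called. The part of these shifts was not tested. At day 14 no member and 0 of all genes (0%) were called.

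Between days within a region, the number of members called depended on the tool. From day 3 to day 7 no member was called in EZ (0.145% of all genes) or PIZ (0.0234%), where DESeq2 called 0 in each and limma-voom 10 in EZ (5.73% of all genes) and 0 in PIZ. From day 7 to day 14 in EZ 1 member was called, against 0.122% of all genes called higher: the effect on Scn1a rose by 1.41 ± 0.27 (log2, edgeR adjusted p = 0.00681), from -1.50 to -0.10. This call was lost in 12 of the 16 fits that left out 1 mouse (1.28 to 1.48 in those, highest edgeR adjusted p = 0.0372), and 14 members were called without mouse 27 (18.8% of all genes), 11 without mouse 23 (10.7%) and 5 without mouse 26 (4.57%). On all mice DESeq2 called 5 members and 5.6% of the 15995 genes to which it gave an adjusted p. There limma-voom called 29 members and 29.5% of all genes, and edgeR on the compared groups alone 0 members. In this contrast 1 of 8 neuron markers was called higher (median 0.79) and 1 of 6 astrocyte markers lower (-0.76), and no marker of the other lists was called, with medians of -1.47 for microglia, -2.15 for meninges and fibroblasts, 1.07 for CA3 pyramidal cells and 0.94 for interneurons. The part of these shifts was not tested.

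The proteins that anchor, modify or repress these channels were followed as a list of 32 partner genes, of which 31 were tested (Kcne2 was below the filter). In EZ 10 were lower and 2 higher at day 3 and 20 lower and 4 higher at day 7, with medians of -0.49 and -0.76, and 0 were called at day 14. Of all genes, 8.61% were lower and 16.1% higher at day 3, and 11.9% and 20.6% at day 7. Fgf12, a fibroblast growth factor homologue that binds the sodium channel tail, was 20.1, 22.8, 24.8 and 26.7 CPM at day 3 against 54.2, 64.0, 64.4 and 68.2 CPM (-1.41 ± 0.16, edgeR adjusted p = 2.97e-08) and was also lower at day 7 (-1.15). Rims1, which tethers presynaptic calcium channels, was lower by -1.33 and -1.18. Rest, the transcriptional repressor of neuronal genes that is known to act on sodium channel promoters, was 9.60, 9.64, 13.3 and 19.2 CPM at day 3 against 5.70, 6.67, 7.16 and 7.56 CPM (0.93 ± 0.19, edgeR adjusted p = 0.000115). At day 7 Rest was 8.36, 13.9, 18.4 and 20.4 CPM against 5.97, 6.14, 6.54 and 7.16 CPM (1.24 ± 0.19, edgeR adjusted p = 1.15e-06). Gem, a small GTPase that inhibits calcium channels through their beta subunits, rose by 1.78 and 2.97, and its relative Rem2 fell by 1.49 and 2.03. At day 7 the channel-trafficking partner Pex5l of HCN channels (-1.01) and the initial segment scaffolds Ank3 (-0.74) and Sptbn4 (-0.93) were lower, while Nfasc was higher (0.74). In PIZ 2 partners were lower at day 3 (Fgf12 -0.70 and Rims1 -0.59), where 1.57% of all genes were, and none at days 7 and 14.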

How the data were processed

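Poly-A RNA of 48 dentate gyrus libraries (24 mice, EZ and PIZ each) was made into stranded paired-end libraries. The values are read counts per gene that the authors deposited as raw counts. Per the submitters' processing notes and the study's methods, reads were trimmed with fastp 0.20.1, aligned to GRCm39 with HISAT2 2.2.1 and counted with featureCounts (Subread 1.6.4) on Gencode M28, by strand, with the primary alignment of multi-mapping reads. The notes also name DESeq2 1.32.0 and R 4.1.1. Gene names, lengths and coding exons were taken from Gencode M39 (98.9% of identifiers matched).

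Counts were fitted here with edgeR 4.0.16 (R 4.3.3) by the quasi-likelihood test with TMM scaling on all 48 libraries with 12 group means, after edgeR's filter by expression, which left 21390 genes. A call needed a Benjamini-Hochberg adjusted p below 0.01 and a change of more than 1.5-fold. SE is the log2 fold change over the square root of F. CPM use TMM library sizes, and FPKM divide these by exon length. DESeq2 1.42.0 and limma-voom (limma 3.58.1) with quality weights, other scalings, filters and thresholds, the compared groups alone, a mouse block and leaving out each mouse were alternatives. The script was tested on simulated data. Totals of 17762656 to 25712975 counts per library limit the precision of genes with few counts, such as Scn7a.

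EZ and PIZ libraries of a mouse are paired by the animal: their deviations from the group means correlated with r from -0.054 to 0.376, over 0.1 in 20 of 24 pairs. P-values of the main fit measure the spread between mice within a group, taken over all 12 groups together and not over the compared groups alone. They do not use the pairing, which only the fit with mouse as a block does. Members and gene lists were chosen with earlier results of these data known. Values of every library are given for the member of each class with the smallest p at EZ day 3 and at EZ day 7 and the one with the highest level per length, for members called in EZ at day 14 or in PIZ at days 7 or 14, and for up to 6 called in a difference between regions or days; partners are the 2 with the smallest p per direction. Scn3b, Cacng6, Cacna2d2, Cacna1a and the other partners named were chosen after their values were seen. Some members and sequences are not reported here and are left out of the plots, while the counts and medians over members include all 39.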

Additional observations from a re-analysis of the deposited data

Results flagged for a closer look

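Of 216 groups of 4 libraries examined for the named members, 14 held a library far from the other 3 by Dixon's criterion, where chance gives about 1 in 20 groups (10.8). In 6 of the 14 it was mouse 27 in EZ at day 14. Its values were 79.3 CPM for Cacna1e (527 to 590 in the others), 45.7 for Cacna1s (0.292 to 0.393), 7.84 for Cacna2d4 (1.97 to 2.25), 85.4 for Cacnb3 (172 to 189), 171 for Cacng7 (103 to 111) and 3.58 for Hcn4 (1.09 to 1.51). Among saline libraries, mouse 18 in PIZ at day 3 held 0.789 CPM of Cacna1s (0.303 to 0.340), mouse 39 in PIZ at day 14 held 0.881 CPM of Cacna2d4 (1.45 to 1.54) and 121 CPM of Scn1a (94.4 to 98.9), and mouse 37 in EZ at day 3 held 175 CPM of Cacnb4 (156 to 159) and 20.8 CPM of Cacng4 (23.2 to 23.3). Among kainate libraries of PIZ, mouse 27 at day 14 held 228 CPM of Cacnb3 (197 to 202), mouse 44 at day 3 held 1.40 CPM of Hcn4 (1.52 to 1.54) and mouse 21 at day 7 held 245 CPM of Scn2b (191 to 194).

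The kainate effect differed between EZ and PIZ at day 7, by the test of the difference itself, for members that include Scn4b (-2.80), Scn1a (-1.32), Scn2b (-1.22), Cacng2 (-0.99), Cacng4 (0.83) and Cacng6 (2.14), and between day 14 and day 7 in EZ for Scn1a (1.41). Each of the calls between regions was lost without mouse 20, 21, 35 or 89, that of Cacng4 also with mouse as a block (0.78, edgeR adjusted p = 0.0111), those of Scn2b, Cacng2 and Cacng4 on the compared groups alone, and the call of Scn1a between days in 12 of the 16 fits that left out 1 mouse.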

How the results depend on the processing

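The number of members called in EZ was 18 to 26 at day 3 and 25 to 30 at day 7 under other tools, scalings, filters and thresholds, except that fitting the compared groups alone gave 10 at day 7. Leaving out 1 mouse gave 16 to 23 at day 3 and 19 to 28 at day 7, and leaving out mice 21 and 35, chosen after seeing the data, gave 9. In EZ at day 14 the count was 2 at an adjusted p under 0.05 and 0 with limma-voom, with at least 10 counts in every library and on the compared groups alone, and 0 to 2 without 1 mouse; Cacna1s reversed with limma-voom (-0.16) and without mouse 27 (-0.41), and ran from -0.41 to 5.14 without 1 mouse. In PIZ at day 3 it was 2 by library size only and 2 to 4 without 1 mouse. For EZ against PIZ, day 3 gave 11 with limma-voom and 0 to 2 without 1 mouse. Day 7 gave 20 at an adjusted p under 0.05, 13 with DESeq2, 29 with limma-voom, 11 with mouse as a replicate block, 0 without mice 21 and 35 and 0 to 17 without 1 mouse. The block changed no count at day 3, day 14 or between saline regions. From day 3 to day 7 in EZ limma-voom called 10. From day 7 to day 14 the count was 10 at an adjusted p under 0.05, 5 with DESeq2, 29 with limma-voom, 0 with no filter and on the compared groups alone, and 0 to 14 without 1 mouse. In PIZ, the pore-forming median at day 7 was 0.10 as reported, and turned negative with limma-voom (-0.15) and with at least 10 counts in every library (-0.16), and limma-voom moved the auxiliary median from -0.14 to -0.22 at day 7 and from -0.06 to -0.12 at day 14. Of 586 values of 16 named members under these settings, 242 that left out 1 mouse and 251 others kept their direction and side of the threshold, 61 and 30 kept the direction and lost the call, and 1 of each kind reversed. Shares of all genes called are given above for some of these fits and were not taken for the others. For those others, whether the members moved with all genes cannot be read from the counts. The cause of these changes was not tested.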
